A study of Caenorhabditis elegans with 2 samples.

Results

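Chromosome V of Caenorhabditis elegans carried 283 of the 2183 thresholded peaks of the tagged protein F16B12.6 (12.96%), and they are described here. They are the rows of the thresholded list on the ce11 assembly that lie on chromosome V. Within that list the chromosome was the only criterion, and no further signal cutoff was applied. The list itself leaves out entries that did not pass the authors' threshold. Chromatin immunoprecipitation followed by sequencing (ChIP-seq) recovered DNA bound by an eGFP fusion of F16B12.6 from whole first-stage (L1) larvae of both sexes. The animals were of strain OP114, a mutant for unc-119 (allele tm4063, chromosome III) into whose genome the transgene wgIs114 is integrated. Their age in hours is unknown. The 2 biological replicates make up 1 group with the same genotype and stage, and no untagged or wild-type group is compared here. Because whole larvae were used, a peak cannot be assigned to a tissue, and nothing in the labels says which promoter drives the transgene. The thresholded list was made by the authors from both replicates pooled and from each alone. Each of the relaxed lists (pooled, replicate 1 and replicate 2) ranks 30000 entries in which peaks and background are mixed. Read numbers are not stated, and the depth behind a peak is unknown.

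A transcription factor recovered by ChIP-seq is usually found at short stretches of open DNA, most of them just upstream of genes in this compact genome. Worm autosomes have a central part rich in conserved, widely expressed genes and arms with more repeats, more recombination and more genes of rapidly evolving families. Chromosome V is the longest chromosome and is known for its many chemoreceptor genes, which encode membrane receptors used by sensory neurons to detect odours and other chemicals. These genes sit in tandem clusters made by repeated duplication.

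The sequence under the strongest peaks of the chromosome is shown first, because the words in it recur below. Each line gives the 100 bp centred on a summit, on the plus strand of ce11, read from the RefSeq genome of the same build. Capitals mark the 6-base word ACGCGC and the 8-base word GCAAACAC, or their reverse complements GCGCGT and GTGTTTGC. Both words were chosen for their enrichment at summits of the other 5 chromosomes. The sequences lie at V:5592472-5592571 (vps-37), V:20845645-20845744 (between F31D4.2 and fkb-6), V:126754-126853 (W03F9.1), V:14415336-14415435 (between nxf-1 and C15H11.11), V:17981870-17981969 (near snx-6), V:6656822-6656921 (snb-1) and V:12191092-12191191 (dpy-30). The last line, V:12184467-12184566, is the summit shared by usip-1 and the chemoreceptor gene srd-4, shown as an example of a weak peak at a receptor gene.
vps-37: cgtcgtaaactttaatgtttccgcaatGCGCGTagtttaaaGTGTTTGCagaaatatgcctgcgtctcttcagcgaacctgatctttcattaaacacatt
F31D4.2 and fkb-6: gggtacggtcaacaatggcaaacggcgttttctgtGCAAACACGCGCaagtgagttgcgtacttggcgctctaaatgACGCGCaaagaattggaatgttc
W03F9.1: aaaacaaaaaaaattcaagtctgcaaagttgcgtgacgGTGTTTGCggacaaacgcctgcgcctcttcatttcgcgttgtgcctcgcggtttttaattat
nxf-1 and C15H11.11: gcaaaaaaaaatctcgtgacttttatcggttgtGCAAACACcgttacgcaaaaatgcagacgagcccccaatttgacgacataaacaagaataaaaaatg
near snx-6: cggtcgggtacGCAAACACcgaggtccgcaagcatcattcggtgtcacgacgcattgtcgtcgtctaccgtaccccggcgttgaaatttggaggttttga
snb-1: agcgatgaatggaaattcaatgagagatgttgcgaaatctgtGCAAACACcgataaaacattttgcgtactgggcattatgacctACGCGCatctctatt
dpy-30: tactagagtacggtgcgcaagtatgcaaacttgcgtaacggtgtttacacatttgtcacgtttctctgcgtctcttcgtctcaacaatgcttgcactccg
usip-1 and srd-4: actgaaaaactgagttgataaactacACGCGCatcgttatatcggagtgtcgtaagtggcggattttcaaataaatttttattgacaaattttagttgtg
The 8-base word was present in the first 6 windows, and in F31D4.2 and fkb-6 it overlapped the 6-base word in a single run. The window of usip-1 and srd-4 held the 6-base word alone, and the dpy-30 window held neither.

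The strongest peak of chromosome V lay upstream of vps-37, whose product is a subunit of the ESCRT machinery that sorts membrane proteins for breakdown. It spanned V:5592396-5592645, had a signal of 920 in the pooled list, and ranked 14 among all 2183 peaks. Its signal was 551 in replicate 1 and 375 in replicate 2, where it ranked 14 and 13. Signal is the value in column 7 of the deposited list, assigned by the authors' peak caller on a scale that is not stated, and it is used here only to rank peaks within a list.

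The second peak (V:20845561-20845809, signal 680 pooled, 387 in replicate 1 and 292 in replicate 2) lay between F31D4.2, annotated as a sugar phosphate phosphatase, and fkb-6, a peptidylprolyl isomerase that helps proteins fold. This was also the last peak before the right end of the chromosome. The third (V:126679-126916, 550 pooled, 321 and 232) was at W03F9.1, the homologue of the zinc finger protein ZPR1. The fourth (V:14415254-14415490, 533 pooled, 310 and 225) was shared by nxf-1, the nuclear export factor for messenger RNA, and C15H11.11, a subunit of the cytochrome b-c1 complex. The fifth (V:17981784-17982041, 511 pooled, 313 and 200.2) had no gene in its promoter window, and the nearest 5' end, that of snx-6, a sorting nexin gene, lay downstream of the summit (relative position -1838 bp). The sixth (V:6656757-6656985, 502 pooled, 292 and 212) was at snb-1, which encodes synaptobrevin of synaptic vesicles, and the seventh (V:12191021-12191254, 483 pooled, 278 and 208) at dpy-30, whose product is a component of histone methyltransferase and dosage compensation complexes.

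The remaining 8 of the 15 strongest were at promoters, with pooled signals of 454 to 401. They lay at pqn-51 and K11D12.14 (454), at rbx-1 (437), which encodes the RING subunit of cullin ubiquitin ligases, and at Y45G12B.2 (436), a zinc finger protein gene. Next came C55A6.1, annotated as a ubiquitin ligase, with C55A6.10 (420), then Y50D4A.4 with wrb-1 (412), whose product inserts tail-anchored proteins into membranes. The last were acl-2 (406.5), an acyltransferase gene of phospholipid synthesis, cyn-7 with bath-36 (405), a cyclophilin gene and a BTB and MATH domain gene, and tmed-10 (401), which encodes a cargo receptor of the early secretory pathway. All 15 ranked between 14 and 203 in replicate 1 and between 13 and 189 in replicate 2. Of these peaks, 9 lay in the centre of the chromosome and 6 in the arms, and 5 were divergent, which means that the summit lay in the windows of genes on both strands.

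Over all 283 peaks the pooled signal ran from 21.7 to 920 with a median of 42.6, and 51 peaks exceeded 200. In replicate 1 all 283 had an entry, with a median signal of 25.5. In replicate 2 there were 280, with a median of 17.3. The 3 peaks with no entry in replicate 2 were among the weaker ones. One of them is shared by clic-1 and the chemoreceptor gene srr-10 (pooled signal 23.1). The Spearman correlation of the replicates' signals was 0.753 over the 280 peaks, against 0.833 over 1879 peaks of the other chromosomes. These are descriptions, because the authors' list was selected with the use of both replicates.

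**Figure D1:**
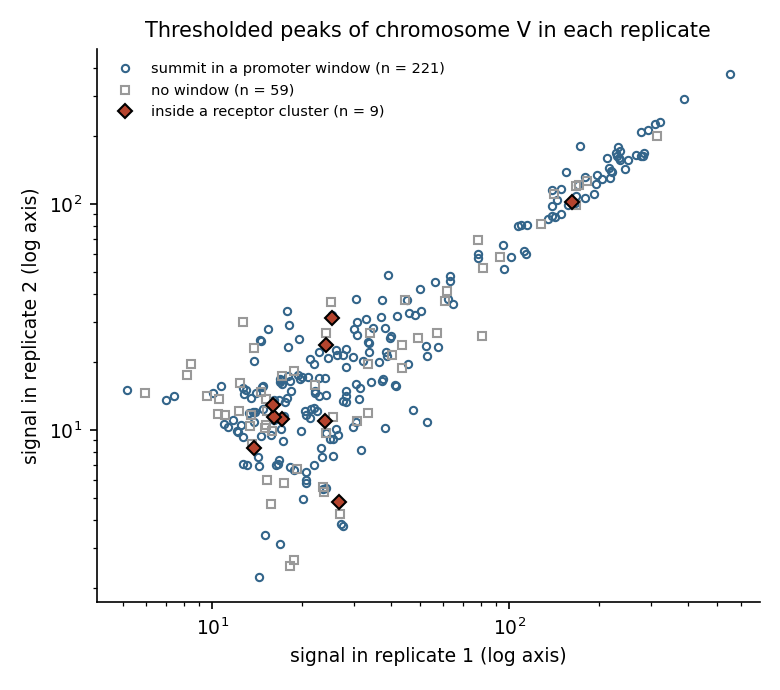
Signal of each chromosome V peak in replicate 1 (x axis, log scale) and replicate 2 (y axis, log scale), for the 280 peaks with an entry in both. Circles are peaks with the summit in a promoter window, squares are the others, and diamonds mark the 9 peaks inside receptor clusters, of which the F36D3.1 peak (163 and 102) had the highest signals.

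Genes of chromosome V were bound less often than genes elsewhere. Bound genes are protein-coding genes with a thresholded summit from 1000 bp upstream to 200 bp downstream of its annotated 5' end. This held for 327 of 4994 genes on V (6.55%, 95% Wilson interval 5.90 to 7.27%) and for 2029 of 14979 on the other 5 nuclear chromosomes (13.5%). Over all 19973 genes the share was 11.8%. The odds ratio was 0.447 (95% interval 0.396 to 0.505, p = 1.35e-44 in a two-sided Fisher's exact test, adjusted p = 1.49e-43 over 11 comparisons). The strongest entries of each replicate alone, as many as there are thresholded peaks, gave 6.47% on V against 13.4% in replicate 1 and 6.05% against 13.05% in replicate 2. The share on V was below that on I (18.55%), II (12.03%), III (21.4%) and IV (10.7%), with adjusted p of at most 4.27e-11 over 5 comparisons in Fisher's exact test. It was not separated from that on X (6.04%, odds ratio 1.09, 0.898 to 1.32, adjusted p = 0.4075 in Fisher's exact test).

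Neighbouring genes often share a peak, but the tests take genes and peaks of pooled libraries as independent units. Where units are not independent, the intervals here are too narrow and the p-values too small. They do not measure the spread between animals.

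**Figure D2:**
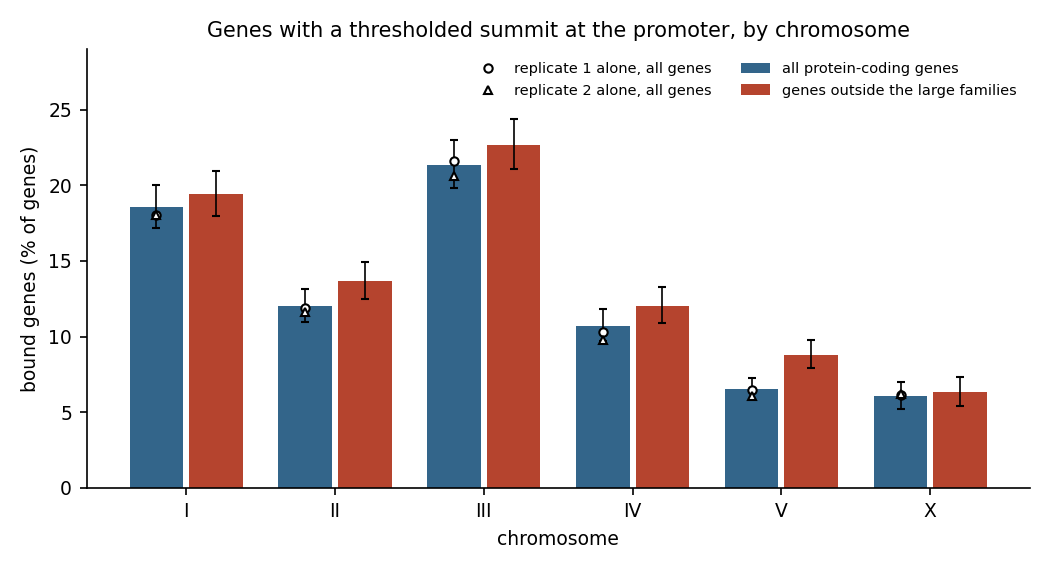
Share of protein-coding genes with a thresholded summit in the promoter window (y axis, percent) on each chromosome (x axis), for all genes and for genes outside the large families, with 95% Wilson intervals. Open symbols are the shares with each replicate alone, and V stands at 6.55% of all genes and 8.78% outside the families.

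Chemoreceptor genes were seldom bound on any chromosome, and most of them lie on V. Chromosome V held 890 of them, 17.8% of its genes and 67.9% of all chemoreceptor genes, and 6 were bound (0.674%). On the other chromosomes 2 of 420 were bound (0.476%). Together with 9 further large families, such as nuclear hormone receptors, C-type lectins, F-box proteins and cuticle collagens, they accounted for 28.4% of the genes of V and 9.97% of the genes elsewhere. Of these family genes 13 of 1418 were bound on V and 43 of 1493 elsewhere. Family genes were matched by gene name, so members under sequence names count as outside the families. An example on V is W02H5.16, annotated with a G protein receptor domain, and such genes were not counted. Outside the families the share was 314 of 3576 genes on V (8.78%) and 1986 of 13486 elsewhere (14.7%). The odds ratio was 0.557 (0.492 to 0.632, p = 6.35e-22 in Fisher's exact test, adjusted p = 2.33e-21). With family membership and position in centre or arm held fixed, the Mantel-Haenszel odds ratio was 0.544 (95% interval 0.481 to 0.615). This is 1 value over strata that differ. Outside the families the shares on V and elsewhere were 10.15% and 15.25% in the centre, and 6.84% and 14.02% in the arms. Among genes outside the families the share on V exceeded that on X (6.31%, odds ratio 1.43, 1.17 to 1.74, adjusted p = 3.87e-04 in Fisher's exact test) and was below those on I, II, III and IV.

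Both well-named and sparsely annotated genes showed lower shares on V. Genes with a standard name were bound in 212 of 1444 cases on V (14.7%) and 1405 of 6560 elsewhere (21.4%). Those known by a sequence name were bound in 102 of 2132 cases (4.78%) and 581 of 6926 (8.39%). Both counts leave the large families out.

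Genes of basic cell functions were few on chromosome V, as counted by lists matched by gene name. The 13 lists of such genes held 98 members there and 605 elsewhere, of which 43 (43.9%) and 341 (56.4%) were bound, against 11.8% of all genes. Cytosolic ribosomal protein genes were bound in 6 of 8 cases on V, with the highest signals at rpl-28 (66.3), rps-27 (63.5) and rpl-2 (58.1), and in 62 of 73 elsewhere. Proteasome subunit genes were bound in 4 of 5 cases, at pas-6 (283), rpt-1 (54.1) and rpt-2 (42.8) among others, and in 19 of 28 elsewhere. All 3 genes of the nuclear pore and nuclear transport list were bound, ima-1 (33.1), npp-22 (32.8) and xpo-1 (31.8), as were 30 of 37 elsewhere. Splicing factors had 4 bound genes of 8, among them sftb-2 (395), snr-4 (77.3) and gut-2 (36.4). Among genes of replication and the cell cycle it was 3 of 8, namely the helicase subunit genes mcm-3 (335) and mcm-7 (36.97) and the spindle checkpoint gene mdf-1 (24.8). Of the chaperone genes 6 of 16 were bound, led by dnj-19 (59.96), cct-7 (56.25) and ahsa-1 (45.9). Of the RNA polymerase and general transcription genes it was 6 of 14, led by ttb-1 (68.8), mdt-6 (39.98) and ints-5 (38.8). A peak shared by neighbouring genes counts for each of them, as at rpl-28 with mrpl-49, mcm-7 with hpo-18, and dnj-19 with nhr-47. Which gene such a peak belongs to is uncertain.

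Several other lists, also matched by gene name, had lower shares on V than elsewhere, without a test of the difference. For respiratory chain and ATP synthase genes it was 1 of 6 (atp-4, 357) against 28 of 47, and for mitochondrial ribosomal proteins 2 of 10 (mrps-28, 392, and mrpl-49, 66.3) against 30 of 60. Translation factors stood at 3 of 7 (eef-1G, 84.5, erfa-1, 55.7, and ife-3, 25.7) against 27 of 38. The gene ife-3, for a cap-binding translation factor, was at the first peak from the left end of the chromosome. Only vars-1 (49.7) of 4 aminoacyl-tRNA synthetase genes was bound, against 12 of 27 elsewhere. Shares of the ESCRT list, with vps-37 and vps-60 (24.3) bound among 6, and 13 of 38 elsewhere, were close. The autophagy list had the higher share on V, with atg-9 (36.1) and atg-18 (29.1) bound among 3, and 9 of 25 elsewhere. Genes under other names were missed by the lists on V and elsewhere. Bound on V but unlisted were C15H11.11 (533), R04F11.2 (46.6) and hpo-18 (36.97), annotated as subunits of the respiratory chain or ATP synthase. So were R186.8 (170), a mitochondrial ribosomal protein gene, and C37C3.18 (33.5) and T16G1.9 (23.6), annotated as translation initiation factors. Unlisted genes elsewhere were not counted, so the shares hold for listed genes only.

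Shares of the large families outside the chemoreceptors are read against 6.55% of all V genes and 11.8% of all genes. The F-box and BATH families, matched by gene name, had 5 bound members of 90 (5.56%), near the share of all V genes, and 20 of 305 elsewhere (6.56%). The highest signals among listed members on V were at bath-36 (405), fbxa-64 (259.6) and bath-39 (228). Y32B12B.2 (332) and F48G7.4 (23.1), annotated with an F-box domain, were bound on V but unlisted, and unlisted genes elsewhere were not counted. Nuclear hormone receptors were bound in 2 of 167 cases (1.20%), nhr-142 (61.8) and nhr-47 (59.96), and in 3 of 107 elsewhere (2.80%). The peak of nhr-142 is shared with F44E7.9 and that of nhr-47 with dnj-19 of the chaperone list, so the assignment is uncertain. Histone genes, which were not counted as a family here, were bound in 3 of 27 cases (11.1%, near the share of all genes), his-37 (136), his-35 and his-41 (both 31.6, 1 shared peak). No bound gene was seen among 86 C-type lectin genes, which allows a share of up to 3.49%, among 92 detoxification enzyme genes (up to 3.26%), or among 32 cuticle collagen genes (up to 9.375%). Those limits cover counting error only. Shares were low on the other chromosomes too, at 5 of 154 C-type lectin genes (3.25%), 2 of 96 detoxification enzyme genes (2.08%) and 6 of 142 cuticle collagen genes (4.225%).

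Peaks lay in the centre of chromosome V more often than in its arms. The centre is the middle 50% of the length, and it held 178 of the 283 peaks (62.9%), or 17.01 peaks per megabase, against 10.9 in the left arm and 9.18 in the right. Of the genes in the centre 222 of 2624 were bound (8.46%), and of those in the arms 105 of 2370 (4.43%). The odds ratio was 1.99 (1.57 to 2.53, p = 7.94e-09 in Fisher's exact test, adjusted p = 1.75e-08). The left arm had 62 of 1208 genes bound (5.13%) and the right arm 43 of 1162 (3.70%). With replicate 1 alone the shares were 4.80% in the left arm, 8.27% in the centre and 4.13% in the right arm, and with replicate 2 alone 4.55%, 7.85% and 3.53%.

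This contrast was larger on V than on the other chromosomes combined, where the odds ratio was 1.16 (1.05 to 1.27). The ratio of the odds ratios was 1.72 (95% interval 1.33 to 2.23, which excludes 1). Against single chromosomes it ranged from 1.87 for III to 2.41 for X and the interval excluded 1, except for II, where it was 1.23 (0.8915 to 1.69). On II the left arm had a low share (5.74%) and the right arm did not (14.7%). Genes outside the large families gave an odds ratio of 1.54 for the centre of V and a smaller ratio to the other chromosomes (1.39, 1.07 to 1.82). Among these genes II also had a higher share in the centre (15.5%) than in the arms (11.3%). On I, III and IV the shares were close, and on X that of the centre was lower (5.95% against 6.72%).

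**Figure D3:**
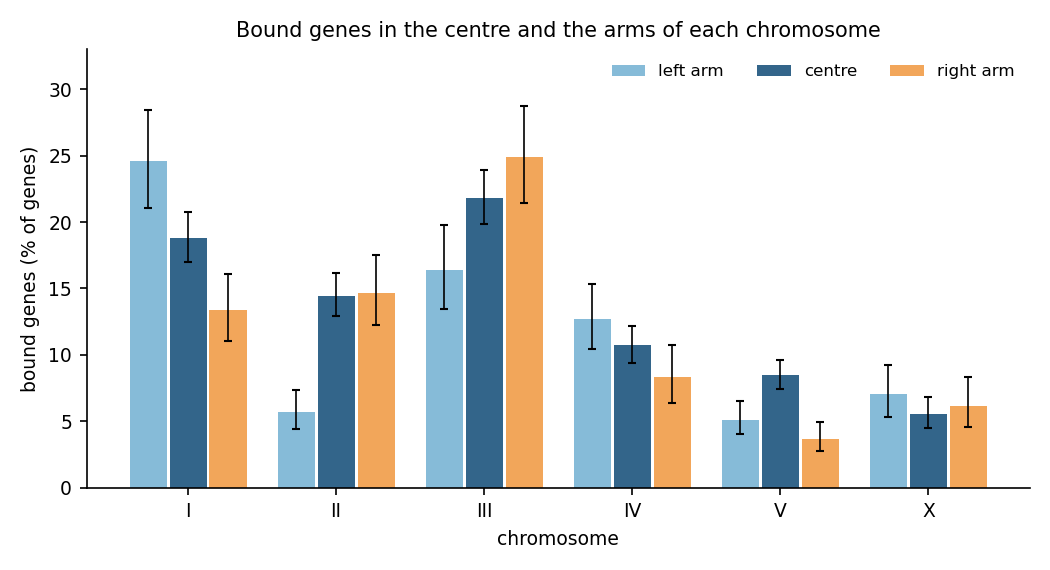
Share of protein-coding genes bound (y axis, percent) in the left arm, the centre and the right arm of each chromosome (x axis), with 95% Wilson intervals. On V both arms (5.13% and 3.70%) lie below the centre (8.46%).

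Along the chromosome, 1 Mb bins held from 7 to 21 peaks. The bins from 10 to 11 Mb and from 12 to 13 Mb had the most, 21 each, and in the second of these 34 of 262 genes were bound (12.98%). The bin from 16 to 17 Mb had the lowest bound share, 7 of 299 genes (2.34%). In the 21 bins the number of chemoreceptor genes and the number of peaks had a Spearman correlation of -0.342, and neighbouring bins can share gene families. With the bound share of the genes outside the large families, the correlation was -0.137.

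Neighbouring summits were 40.8 kb apart at the median, and 22 of the 282 gaps exceeded 200 kb. The longest stretch with no thresholded peak ran for 683 kb, from the summit at position 16965850, between efl-1 and fbxa-90, to the summit at 17648962 in an intron of fbxa-192. efl-1 encodes an E2F-type transcription factor and fbxa-90 and fbxa-192 F-box proteins. The flanking signals were 60.2 and 65.2. The stretch held 146 protein-coding genes, 57 of them chemoreceptor genes, and 66 weaker entries of the pooled relaxed list. The next longest, 584 kb, held 167 genes with 90 chemoreceptor genes, and the third, 534 kb, held 187 with 60.

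Chemoreceptor clusters were nearly free of thresholded peaks. A cluster is a run of at least 5 chemoreceptor genes whose successive starts lie within 20 kb. There were 52 on V, 33 in the arms and 19 in the centre, with 620 receptor genes in 3.10 Mb (14.8% of the chromosome). They held 9 peaks, or 2.90 per megabase, against 15.4 elsewhere on V, and 45 of the 52 clusters had none. Weaker pooled entries, which overlap no thresholded peak, were present at 155 per megabase in clusters and 244 elsewhere. The largest cluster by receptor genes (V:2816883-3011494, 47 receptor genes) had 25 weaker entries and no thresholded peak.

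Other genes that lie within these clusters were also bound seldom. Of 369 non-receptor genes in clusters 8 were bound (2.17%), and of 3735 elsewhere on V 313 (8.38%), with an odds ratio of 0.242 (0.119 to 0.493, p = 2.08e-06 in Fisher's exact test, adjusted p = 3.81e-06). In the arms it was 6 of 252 against 98 of 1543 (p = 0.00872 in Fisher's exact test) and in the centre 2 of 117 against 215 of 2192 (p = 0.00159 in Fisher's exact test). Without the other large families the counts were 7 of 274 and 307 of 3302 (odds ratio 0.256). On the other chromosomes 2 of 92 non-receptor genes in clusters were bound and 2025 of 14467 outside them, so the contrast was seen there too (odds ratio 0.137, p = 2.16e-04 in Fisher's exact test).

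The bound share was higher farther from the clusters. It was 21 of 501 non-receptor genes (4.19%) up to 20 kb from a cluster, 83 of 1076 (7.71%) from 20 to 100 kb, 106 of 1137 (9.32%) from 100 to 300 kb, and 103 of 1021 (10.1%) beyond. The last 3 classes have overlapping intervals. Beyond 300 kb the share was 9.17% in the arms and 10.5% in the centre, also with overlapping intervals. Shares in the arms were below those in the centre in the nearer classes outside clusters too, at 2.58% and 6.81% up to 20 kb, 6.08% and 9.27% from 20 to 100 kb, and 7.37% and 10.3% from 100 to 300 kb. These pairs were not tested.

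**Figure D4:**
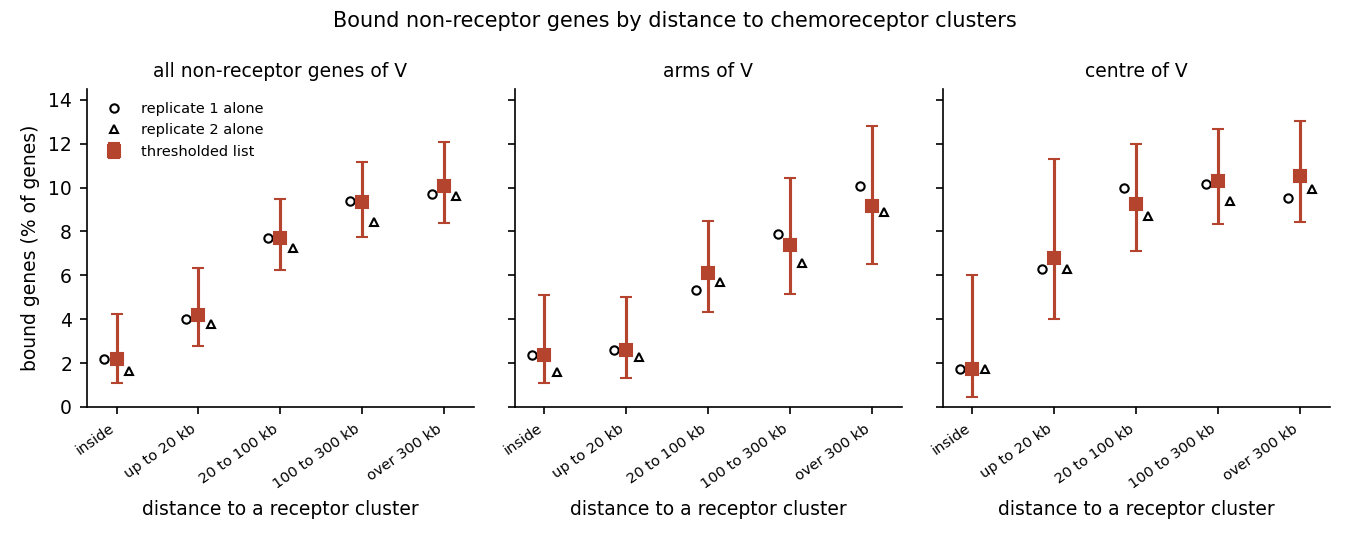
Share of non-receptor genes of V bound (y axis, percent) by distance of the 5' end to the nearest chemoreceptor cluster (x axis, 5 classes), for all such genes, for the arms and for the centre. Squares with 95% Wilson intervals are the thresholded list, which ran from 2.17% inside clusters to 10.1% beyond 300 kb, and open symbols are each replicate alone.

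The 8 bound non-receptor genes inside clusters are F36D3.1, efl-1, fbxa-90, F25E5.1, sti-1, duo-1, F13A7.14 and F48G7.4, the last 3 of which were chosen for naming after their values were seen. F36D3.1, annotated with a cupin domain, had the strongest peak of any cluster (265 pooled, 163 in replicate 1 and 102 in replicate 2). The shared peak of efl-1 and fbxa-90 followed, with 60.2 pooled, 25.2 in replicate 1 and 31.15 in replicate 2. sti-1, a co-chaperone gene, had 36.2 pooled but 26.7 in replicate 1 and 4.80 in replicate 2, and duo-1, a ubiquitin hydrolase gene, 29.4 pooled, 16.1 and 11.4. The first of these stood far above the others in both replicates.

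Among the 6 bound chemoreceptor genes only 2, srh-170 and srbc-82, had a peak with no other gene in its window. The srh-170 peak (V:15389106-15389167, signal 46.6 pooled, 24.1 in replicate 1 and 23.8 in replicate 2) was 62 bp wide, and 55 further copies of at least 75 bp of the sequence around its summit were found in the genome. The srbc-82 peak (32.05 pooled, 17.2 and 11.2) had 2 such copies. Shared receptor peaks had signals of 40.3 at srh-89, shared with F25E5.1, 30.3 at srd-4, shared with usip-1, and 23.1 at srr-10, shared with clic-1. A shared window does not tell which gene the peak belongs to, so the assignment to the receptor is uncertain.

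Summits on V were 29.1 kb from the nearest chemoreceptor gene at the median, and weaker pooled entries on V 20.7 kb. Within 1 kb of a receptor gene lay 9 of 283 thresholded summits, all ranked below the stronger peaks, and 508 of 4825 weaker entries (10.5%). None of the 126 V summits among the 1091 strongest peaks of the whole list lay that near.

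The difference in strength between V peaks and the others did not pass the test. Of the 283, 126 (44.5%) belonged to those 1091 strongest, against 965 of 1900 on the other chromosomes (50.8%), with an odds ratio of 0.778 (0.605 to 0.9995, p = 0.0558 in Fisher's exact test, adjusted p = 0.0682). Of the 5114 pooled relaxed entries on V 5.53% were thresholded, against 7.635% elsewhere. The strongest 10% held 20 V peaks (7.07%) and 198 of the others (10.4%). Median signals were 42.6 and 48.9.

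Summits fell in a promoter window for 223 of 283 V peaks (78.8%), and for 75.7% of the other peaks (odds ratio 1.19, 0.881 to 1.62, p = 0.263 in Fisher's exact test, adjusted p = 0.290). The median position relative to the nearest annotated 5' end was -174 bp (quartiles -343 and -59). Divergent pairs shared 90 of the V peaks (31.8%) and 29.8% of the others (odds ratio 1.10, 0.840 to 1.44, adjusted p = 0.488 in Fisher's exact test). The promoter share was higher on V with a 500 bp window (odds ratio 1.49, adjusted p = 0.00867 in Fisher's exact test). Among the 1091 strongest peaks both odds ratios were below 1, at 0.7284 for promoter windows (p = 0.2248 in Fisher's exact test) and 0.7807 for divergent pairs (p = 0.2372 in Fisher's exact test).

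Of the 283 V peaks 126 had 1 gene in the window, 97 had 2 or more and 60 had none, and 40 had sequence-named genes alone. Those 60 peaks had a median signal of 33.5, against 45.6 for the rest. Of their summits 26 were intergenic, 24 in introns, 6 in non-coding genes or pseudogenes, 2 in 5' UTRs and 2 in 3' UTRs. Sequence around the summit, 150 bp, recurred elsewhere in the genome for 16 of the 60 (26.7%), and for 11 of 223 promoter peaks (4.93%). A copy is an alignment of at least 75 bp with an E value up to 1e-10. The odds ratio was 7.01 (3.05 to 16.1, p = 5.65e-06 in Fisher's exact test, adjusted p = 1.13e-05 over 2 comparisons), and on the other chromosomes it was 4.58. Over all peaks the share with a copy was 9.54% on V and 7.42% elsewhere (adjusted p = 0.231 in Fisher's exact test).

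Copies were most numerous at srh-170 (55) and next at a peak with no gene in its window (39 copies, signal 25.3), and 9 peaks had 5 or more, 7 of them outside promoter windows. Of the 55 copies of the srh-170 sequence 5 overlapped a thresholded peak and 21 a pooled entry. The labels do not say how reads matching several copies were placed, and the part of such reads in these peaks was not tested.

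The 6-base word ACGCGC (reverse complement GCGCGT), which had the lowest p of all 6-base words at summits of the other chromosomes, was present within 100 bp centred on the summit at 78 of 283 V peaks (27.6%). In the same length 200 bp to the side it was present at 4. The word was at the summit alone in 77 peaks and at the flank alone in 3 (McNemar's exact p = 1.41e-19, adjusted p = 3.89e-19). It was found at 2.20% of the weaker entries of V and in 1.68% of windows of that length upstream of the 5' ends of V genes. Presence at summits of the other chromosomes was 22.2% (odds ratio 1.34, 1.008 to 1.77, p = 0.0484 in Fisher's exact test, adjusted p = 0.0665), so the difference from V did not pass the adjusted threshold.

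The 8-base word GCAAACAC (reverse complement GTGTTTGC) was present at 52 V summits (18.4%) and at no flank (McNemar's exact p = 4.44e-16). In the weaker entries of V its share was 0.663% and upstream of V genes 0.761%. At summits of the other chromosomes it was 15.2% (odds ratio 1.26, 0.910 to 1.74, p = 0.161 in Fisher's exact test). Either word was present at 114 V summits (40.3%), and both at 16, with the pair overlapping in 1. Both words were searched on both strands. Among V summits the 8-base word was present at 26 of 105 in the arms (24.8%) and 26 of 178 in the centre (14.6%), at 37 of 223 in promoter windows (16.6%) and at 15 of 60 outside them. For the 6-base word the counts were 34 of 105 in the arms (32.4%) and 44 of 178 in the centre (24.7%), and these splits were not tested.

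The words differed in how they went with signal on V. GCAAACAC was present at 47 of the 126 stronger V summits (37.3%) and at 5 of the 157 weaker ones (3.18%), an odds ratio of 18.1 (6.92 to 47.3, p = 3.15e-14 in Fisher's exact test, adjusted p = 1.26e-13 over 4 comparisons). ACGCGC was present at 26.98% of the stronger and 28.03% of the weaker (odds ratio 0.949, 0.561 to 1.605, adjusted p = 0.894 in Fisher's exact test). On the other chromosomes both words were more frequent at the stronger summits, with odds ratios of 8.83 and 1.58. The ratio of the odds ratios of V over the others was 2.05 for the 8-base word (95% interval 0.7335 to 5.725) and 0.6 for the 6-base word (0.3395 to 1.06), and both intervals include 1. Of the 15 strongest V peaks 8 held the 8-base word and 5 the 6-base word. This comparison was chosen after the words' values had been seen.

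**Figure D5:**
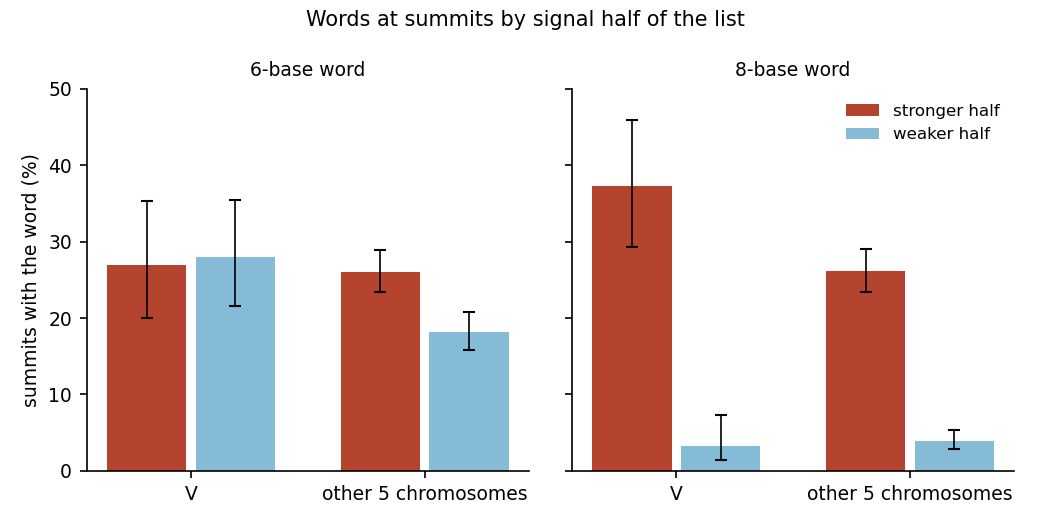
Share of summits (y axis, percent) with the 6-base word (left) and the 8-base word (right) on V and on the other 5 chromosomes, for the 1091 strongest peaks of the list and for the weaker ones, with 95% Wilson intervals. On V the 8-base word stands at 37.3% at the stronger and 3.18% at the weaker summits, the 6-base word at 26.98% and 28.03%.

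Median G and C content of the 100 bp at the summit was 46% for V peaks, 47% for the other peaks and 37% for the weaker entries of V. The part of base content in the comparison of words with the weaker entries was not tested.

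For comparison with non-coding genes, 6.55% of protein-coding genes on V and 13.5% elsewhere had a summit in the promoter window, which is a different window from the one used here. The snoRNA genes of V had a thresholded summit within 500 bp in 11 of 55 cases and in 57 of 291 elsewhere. tRNA genes had one in 2 of 78 cases on V and 54 of 534 elsewhere, and snRNA genes in 1 of 40 and 17 of 89. Of 28 miRNA genes on V none was near a summit, and 19 of 233 elsewhere were. Pseudogenes, 867 on V and 1261 elsewhere, were near a summit in 6 and 38 cases.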

How the data were processed

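ChIP-seq of eGFP-tagged F16B12.6 was done on 2 biological replicates of whole L1 larvae. The authors derived the thresholded list from relaxed lists of the pooled data and of each replicate, which were called against 1 control, per the deposited notes. Aligner, peak caller, read numbers and the reproducibility threshold are not stated. Lists have 10 columns and no header. The signal in column 7, on an unstated scale, and the −log10 q in column 9 are the authors' deposited values. The signal was used to rank peaks.

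Chromosome V rows of the ce11 list were matched to Ensembl 115 protein-coding genes with a window of 1000 bp upstream to 200 bp downstream of the 5' end. Shares of genes and of peaks were set against each other by Fisher's exact test (two-sided), Mantel-Haenszel and ratio-of-odds intervals, and McNemar's exact test, with Benjamini-Hochberg adjustment within families of comparisons at a threshold of 0.05. Python 3.11.15, SciPy 1.17.1, statsmodels 0.14.6 and BLAST+ 2.17.0 were used. The tests were checked on simulated data with independent units, so the check does not cover peaks shared by neighbouring genes. Other windows, cluster definitions, list cutoffs and single replicates were tried. The members and gene lists were chosen with earlier results of these data known. Gene lists were matched by gene name. Genes named are those at the 15 strongest peaks, bound receptor genes (the peak of 1 of them is not reported here), up to 3 bound members of each list by signal, the 5 strongest bound genes in clusters, and genes at both ends of V and at the longest gap. Relaxed ce10 lists were not used.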

Additional observations from a re-analysis of the deposited data

Results flagged for a closer look

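The difference between centre and arms was flagged because it differed between chromosome V and the other chromosomes by a test of the difference itself. The odds ratio of being bound in the centre was 1.99 on V and 1.16 on the others, and the ratio was 1.72 (95% interval 1.33 to 2.23). Against II alone the ratio was 1.23 (0.8915 to 1.69), an interval that includes 1. Chemoreceptor genes made up 26.7% of the genes in the left arm of V, 12% in the centre and 21.7% in the right arm, and outside the large families the ratio was 1.39.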

How the results depend on the processing

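Some of the alternatives, among them those of the 6-base word and of divergent promoters, were chosen after seeing the data. Of 90 alternative values 86 kept their direction and their side of the threshold. With a window of 500 bp upstream the odds ratio for summits in promoter windows, V over the others, was 1.488. Among the 1091 strongest peaks it was 0.7284, and that for divergent promoters 0.7807, both in the opposite direction. With 50 bp around the summit the odds ratio of the 6-base word, V over the others, was 1.472. The causes were not tested. The odds ratio of bound genes, V over the others, ranged from 0.343 to 0.579 over the alternatives and from 0.429 to 0.447 with 1 replicate left out. For centre against arms of V the ranges were 1.55 to 2.02 and 1.93 to 2.02, and for clusters 0.1599 to 0.3596 and 0.196 to 0.246. No paired analysis was possible because both replicates belong to 1 group. Unknown read depth limits what can be said of regions without a peak, where weaker binding cannot be told from background.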
